A study of Mus musculus with 30 samples.

Results

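Sox9, Sox4, Sox11, Aldh1a3, Neurog3, Gata6 and Gata4 are genes of the pancreatic progenitor and of the dedifferentiated islet cell, and were named as a set with earlier results of these data known, by a rule that uses no measured value. Of these 7 genes, 5 had a row in the table of 17775 genes, and Sox11 and Aldh1a3 were not analysed here. Sox4, Neurog3, Gata6 and Sox9 passed a filter of a log2 value of at least 5 in at least 4 of the 30 libraries, as did 16633 genes in all, and Gata4 did not. The question put to them was whether alpha-cells that take on beta-cell genes show the genes of a progenitor. In the sorted alpha-cells none of the 4 differed with Pdx1, with loss of beta-cells or with both at an adjusted p under 0.05, while Neurog3 was higher and Gata6 lower in beta-cells than in alpha-cells.

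As background, the islet cells of the pancreas arise from a progenitor epithelium. Sox9, an HMG-box factor, maintains these progenitors and is kept in duct cells after birth, and the zinc-finger factors Gata4 and Gata6 are needed for the mouse pancreas to form. Neurog3, a basic helix-loop-helix factor, commits single progenitors to the endocrine fate and is largely switched off as islet cells mature, and Sox4 acts with it in mouse endocrine differentiation. Neurog3 and Aldh1a3, a retinaldehyde dehydrogenase, are also used as signs of beta-cells that have lost their identity.

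The libraries are bulk RNA-seq of mouse islet cells sorted by fluorescence. Group alpha Pdx1 DT (6 libraries) held alpha-cells of Glucagon-rtTA, TetO-Cre, R26YFP, CAG-Pdx1 and RIP-DTR mice, 30 days after diphtheria toxin (DT) was injected at 2 months of age. Group alpha Pdx1 (5 libraries) came from 3-month-old mice with those alleles other than RIP-DTR, and no toxin. Group alpha DT (4 libraries) held alpha-cells of Glucagon-Venus, RIP-DTR mice 30 days after the toxin, also injected at 2 months of age. Group beta (7 libraries) held beta-cells of 3-month-old Insulin-mCherry mice, and group alpha (8 libraries) held alpha-cells of 3-month-old Glucagon-Venus mice. CAG-Pdx1 makes the beta-cell factor Pdx1 in cells where Cre, driven by rtTA under the glucagon promoter, has acted, and RIP-DTR puts the toxin receptor under the insulin promoter so that the toxin removes insulin-producing cells. The toxin and RIP-DTR therefore come together and cannot be told apart. The Pdx1 groups also differ from the others in their reporter and in carrying Glucagon-rtTA and TetO-Cre, which cannot be told apart from Pdx1. The labels do not say that libraries came from separate animals, so p-values measure only the spread between these samples.

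Values are quantile-normalized log2 values with common quartiles of 5.95, 8.55 and 10.37. They are not scaled by gene length, so libraries are compared within a gene and no gene is ranked against another. Read totals were not in the table. The lowest value of a library, which a gene without reads would take, ran from 0.758 to 2.35, and libraries held 32 (alpha Pdx1 DT 6) to 111 different values under the first quartile. Pdx1 had a median of 11.65 in alpha Pdx1 DT, 11.60 in alpha Pdx1, 6.07 in alpha DT, 11.26 in beta and 5.03 in alpha. Some libraries went against their labels: Pdx1 was 5.51 in alpha Pdx1 DT 5, 8.61 in alpha Pdx1 5 and 11.23 in alpha 8, and Gcg was the most abundant gene in beta 1 and beta 5. The library alpha Pdx1 DT 5 correlated with alpha 4 at 0.993 over genes, the highest of 435 pairs. Many results are therefore given again without these 5 libraries, which were picked for their Pdx1 and Gcg levels. Not every comparison is, and a result given only once may still move without them. The mean of 10 alpha-cell markers was 12.64 to 14.29 in alpha Pdx1 DT, 12.51 to 13.99 in alpha Pdx1, 13.91 to 14.22 in alpha DT, 8.68 to 12.32 in beta and 13.03 to 14.33 in alpha. In bulk RNA, fewer cells of a type and less RNA per cell cannot be told apart.

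Neurog3 is the member that marks commitment to the endocrine fate, and the bases before its start are shown because it was the member higher in beta-cells. The gene lies at GRCm38 chr10:62133090-62134763, and the 250 bases before its start, from RefSeq on GRCm38.p6, are chr10:62132840-62133089 on the + strand. Capitals mark an E-box (CANNTG, the kind of site that basic helix-loop-helix factors bind) from -165 to -160 and a GATAA match (the core of a GATA factor site) from -31 to -27, counted from the start.
Neurog3: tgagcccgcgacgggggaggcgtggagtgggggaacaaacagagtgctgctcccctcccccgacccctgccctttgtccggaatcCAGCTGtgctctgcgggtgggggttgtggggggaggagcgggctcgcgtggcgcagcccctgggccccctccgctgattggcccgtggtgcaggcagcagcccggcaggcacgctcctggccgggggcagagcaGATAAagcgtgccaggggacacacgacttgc
Both strands were searched, and neither TATAAA nor CACNAG, the N-box of Hes factors, was in this window. Of 32851 windows of the same length before gene starts, 66.2% held CANNTG, 22.6% GATAA, 12.4% TATAAA and 36.7% CACNAG. A match describes the letters and is not evidence of a bound site. The table of promoters also held Sox4 and Sox11.

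Neurog3 was higher in beta-cells than in alpha-cells. It had a log2 value of 4.58 at the lowest, 6.05 at the median and 7.23 at the highest in beta, against 2.07, 2.98 and 4.19 in alpha. All 7 beta libraries lay above all 8 alpha libraries. Neurog3 reached 5 in 6 beta, 2 alpha Pdx1 DT and 1 alpha DT library, and in 0 of alpha Pdx1 and alpha. It thus passed the filter only through beta, where it was high. With no filter, over 17775 genes, its adjusted p in limma was 0.000231. The difference of beta from alpha was 2.94 ± 0.61 (SE, 95% CI 1.70 to 4.18, adjusted p = 0.00027 in limma), in a comparison that called 34.5% of all genes tested, 16.9% of all as higher in beta, and in which 8.11% of genes had every beta library above every alpha library. Beta 1 and beta 5 held the highest values, 7.23 and 6.92, and without the 5 libraries named above the difference was 2.46 ± 0.69 (adjusted p = 0.00599).

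Among the alpha-cell groups, Neurog3 was uneven in alpha Pdx1 DT. Its log2 value was 2.35 at the lowest, 4.27 at the median and 6.93 at the highest there. The libraries alpha Pdx1 DT 3 and 4, at 5.99 and 6.93, were within the range of beta, while the lowest, alpha Pdx1 DT 6, sat at the lowest value of its library. In alpha Pdx1 the values were 4.44, 2.64, 1.93, 2.92 and 4.28, and in alpha DT they were 3.84, 5.46, 2.00 and 2.44. The 2.00, in alpha DT 3, was the lowest value of its library. The alpha Pdx1 DT group had 4 of 6 libraries above all 8 alpha libraries, and overlapped with alpha in the others. Its difference from alpha was 1.43 ± 0.64 (95% CI 0.13 to 2.72, adjusted p = 0.146), and none of the 4 members tested passed in this comparison, which called 7.81% of genes. That share was 1.85% without alpha Pdx1 DT 6, 2.76% without alpha Pdx1 DT 4 and 20.9% without alpha Pdx1 DT 5, the lowest and highest being those without alpha Pdx1 DT 6 and 5, and it was 0% when these groups were fitted alone. From alpha Pdx1, Neurog3 in alpha Pdx1 DT differed by 1.22 ± 0.71 (adjusted p = 0.277), and weighting libraries by their quality gave 1.78 (adjusted p = 0.0277) against alpha and 1.90 (adjusted p = 0.0272) against alpha Pdx1. The weights raised the calls over all genes to 21.2% and 22.7% in these comparisons. Against beta, alpha Pdx1 DT differed by -1.51 ± 0.66 (95% CI -2.85 to -0.18, adjusted p = 0.0874). That interval does not show that the groups are alike, and the adjusted p was 0.0482 without alpha Pdx1 DT 3 and 0.0205 without alpha Pdx1 DT 4. Without the 5 libraries named above, Neurog3 averaged 4.76 in alpha Pdx1 DT, 5.53 in beta, 3.08 in alpha and 2.98 in alpha Pdx1. With all libraries these means were 4.46, 5.97, 3.03 and 3.24. The gap of alpha Pdx1 DT from beta was thus smaller, and its gaps from alpha and alpha Pdx1 were larger. None of these passed the threshold. Neither alpha Pdx1 (0.21 ± 0.67, adjusted p = 0.914) nor alpha DT (0.40 ± 0.72, adjusted p = 0.798) passed the test against alpha.

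Delta-cell markers varied beside Neurog3. All 5 of the list were measured, and their mean log2 value in alpha Pdx1 DT 1 to 6 was 9.86, 8.86, 9.98, 11.19, 7.09 and 7.35, highest in alpha Pdx1 DT 4, which was also highest in Neurog3. The libraries alpha DT 2, beta 1 and beta 5, at the top of their groups in Neurog3, had means of 10.32, 10.87 and 10.47. The library alpha DT 3 had 9.80 with Neurog3 at 2.00, which is the lowest value of that library. Their summed level, as log2, was 15.07 to 17.60 in alpha Pdx1 DT, 15.00 to 15.70 in alpha Pdx1, 15.22 to 17.79 in alpha DT, 12.14 to 16.79 in beta and 14.53 to 16.14 in alpha. Of the 5, 1 rose in alpha Pdx1 DT against alpha, Pdyn, the prodynorphin gene, by 2.41 ± 0.74 (adjusted p = 0.039), which was also higher in beta than in alpha. Of all genes tested, 4.06% rose in alpha Pdx1 DT against alpha. The other beta libraries had delta-cell means of 7.28 to 8.52 with Neurog3 at 4.58 or more. The part of delta-cells in the Neurog3 values was not tested.

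**Figure D1:**
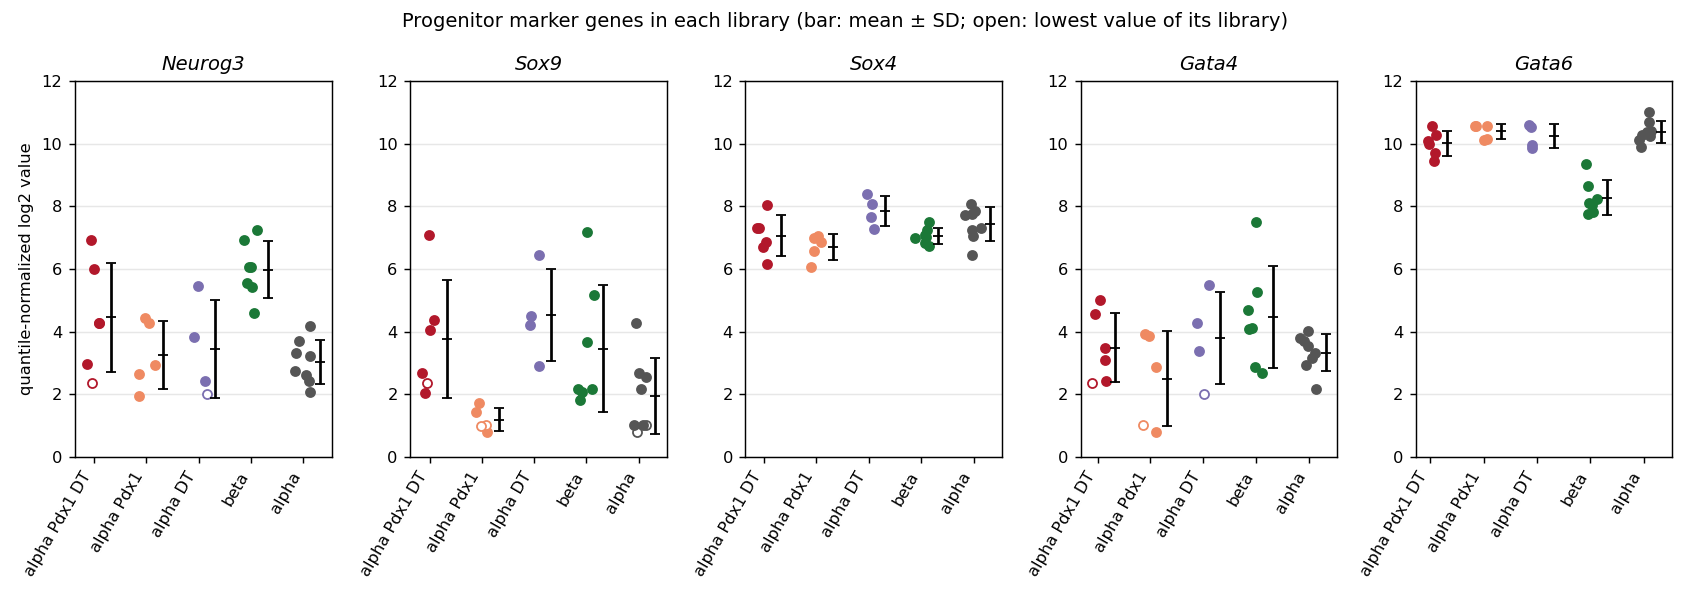
Quantile-normalized log2 values of the 5 genes with a row, 1 point per library, by group, with the mean ± SD beside the points, and open points at the lowest value of their own library. Neurog3 and Gata6 separate beta from alpha without overlap, and Sox9 in alpha Pdx1 DT lies between 2.04 and 7.09, above alpha Pdx1.

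Sox4 was well above the lowest value in every library and passed the test in no comparison. Its log2 value was 6.16 at the lowest, 7.08 at the median and 8.06 at the highest in alpha Pdx1 DT. In alpha Pdx1 it was 7.07, 6.56, 6.87, 6.06 and 6.998, and in alpha DT 7.29, 8.39, 8.07 and 7.65. The beta libraries spanned 6.73 to 7.51 around a median of 7.03, and the alpha libraries 6.43 to 8.08 around 7.52. All groups overlapped their neighbours. By mean, alpha DT (7.85 ± 0.48 SD) came highest, then alpha (7.43 ± 0.53), alpha Pdx1 DT (7.07 ± 0.65), beta (7.06 ± 0.26) and alpha Pdx1 (6.71 ± 0.41), and no gap between neighbours exceeded their SDs. The lowest unadjusted p-values were for alpha Pdx1 against alpha, with a difference of -0.72 ± 0.30 (95% CI -1.34 to -0.11, adjusted p = 0.187), and for alpha Pdx1 DT against alpha DT, with -0.78 ± 0.34 (95% CI -1.48 to -0.09, adjusted p = 0.233). These comparisons called 4.33% and 2.1% of all genes, and 0 of the 4 members. Without the 5 libraries the Sox4 mean was 6.64 in alpha Pdx1, 7.02 in alpha Pdx1 DT and 7.58 in alpha. The lowest adjusted p of any alternative for alpha Pdx1 against alpha was 0.0553 in limma. Sox4 lies at GRCm38 chr13:28948919-28953699.

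Sox9, at GRCm38 chr11:112782210-112787757, was near the bottom of most libraries and high in a few. In alpha Pdx1 DT its log2 value was 2.04 at the lowest, 3.36 at the median and 7.09 at the highest. The alpha Pdx1 libraries had 0.80, 1.72, 1.43, 1.03 and 0.99, the last 2 at the lowest value of their library. In alpha DT it was 2.91, 4.22, 4.51 and 6.46. Every alpha Pdx1 DT library was above every alpha Pdx1 library, as for 2.03% of genes, but alpha Pdx1 DT 6 was so only because its library's lowest value is 2.35, at which Sox9 sat. In beta Sox9 was 1.81 at the lowest, 2.18 at the median and 7.16 at the highest, and in alpha 0.80, 1.60 and 4.27. It passed the filter through 4 libraries, alpha Pdx1 DT 4, alpha DT 4, beta 1 and beta 5, so the test was open to it only because of these.

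With the toxin, Sox9 was 2.58 ± 0.93 higher in alpha DT than in alpha (95% CI 0.69 to 4.46, adjusted p = 0.11) and 2.57 ± 0.92 higher in alpha Pdx1 DT than in alpha Pdx1 (95% CI 0.71 to 4.43, adjusted p = 0.0685). Neither passed the threshold. These comparisons called 3.26% and 9.22% of genes, and 0 of the 4 members in each. Against alpha, alpha Pdx1 DT gave 1.82 ± 0.82 (adjusted p = 0.148) and alpha Pdx1 -0.75 ± 0.86 (adjusted p = 0.722). With the toxin in both groups, alpha Pdx1 DT against alpha DT gave -0.76 ± 0.98 (adjusted p = 0.737). The call for alpha Pdx1 DT against alpha Pdx1 turned with the processing: the adjusted p was 0.034 without alpha Pdx1 DT 5, 0.0453 with library weights, and 0.04, with a difference of 2.86, without the 5 libraries and with no filter. These settings called 15.4%, 22.7% and 6.72% of all genes. The last setting also gave 2.20 (adjusted p = 0.0372) for alpha Pdx1 DT against alpha, where it called 19.2%. In beta against alpha the difference was 1.51 ± 0.78 (adjusted p = 0.136), and 0.47 without the 5 libraries and with no filter, as beta 1 and beta 5 were then gone.

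Leukocyte markers varied beside Sox9. All 10 of the list were measured, and 5 of 10 rose in alpha DT against alpha, 3 of 10 in alpha Pdx1 DT against alpha Pdx1 and 1 of 10 in alpha Pdx1 DT against alpha, among them Timd4 and Marco of macrophages and Lyz2 of myeloid cells. Of all genes, 1.57%, 4.83% and 4.06% rose in these comparisons, and 1.7%, 4.39% and 3.75% fell. Without the 5 libraries, 4 of 10 rose in alpha Pdx1 DT against alpha, where 1642 of all 16461 genes tested rose. The summed level of the 10 leukocyte markers, as log2, was 8.70 to 15.81 in alpha Pdx1 DT, 8.03 to 10.15 in alpha Pdx1, 12.13 to 16.16 in alpha DT, 10.12 to 15.89 in beta and 8.66 to 11.95 in alpha. The 4 libraries highest in Sox9, beta 1, alpha Pdx1 DT 4, alpha DT 4 and beta 5, had marker means of 10.82, 9.63, 11.64 and 8.27. However, alpha Pdx1 DT 6 had a marker mean of 10.71 with Sox9 at the lowest value. With the marker mean as a covariate, a setting chosen after the data were seen, Sox9 differed by 0.74 (adjusted p = 0.795) in alpha DT against alpha and by 1.24 (adjusted p = 0.491) in alpha Pdx1 DT against alpha Pdx1. The summed marker level did not overlap between alpha DT and alpha, so the covariate can take up a toxin effect from any source. These fits therefore cannot separate the toxin from the leukocyte level. Of 13 acinar-cell markers 12 were measured, and none of them or of the 5 delta-cell markers passed in alpha DT against alpha or in alpha Pdx1 DT against alpha Pdx1. The median difference was 1.499 for acinar-cell and 1.987 for delta-cell markers in the first comparison, and 3.367 and 1.503 in the second. The acinar-cell mean was 6.51 to 14.33 in alpha Pdx1 DT, 4.52 to 11.42 in alpha Pdx1, 8.20 to 14.26 in alpha DT, 7.36 to 14.70 in beta and 6.94 to 13.07 in alpha. The acinar-cell mean in the 4 libraries highest in Sox9, in the order above, was 14.70, 12.84, 12.29 and 14.65, and in alpha Pdx1 DT 2 and 3, with Sox9 at 2.68 and 4.05, it was 14.33 and 14.02. The part of these cells in the Sox9 values was not tested further.

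Duct cells are an adult source of Sox9 in the pancreas. Of 10 duct-cell markers, 9 were measured, and their mean was 8.66 to 8.90 in alpha Pdx1 DT, 8.34 to 9.03 in alpha Pdx1, 8.40 to 9.15 in alpha DT, 7.91 to 10.48 in beta and 8.74 to 9.43 in alpha. In alpha Pdx1 DT 4, with Sox9 at 7.09, this mean was 8.68, and the group's median was 8.71. In beta 1 the mean was the highest of all, 10.48, and Krt19, a duct keratin, was also at 10.48 there. Krt19 was 1.44 in alpha Pdx1 DT 4, 3.23 in alpha DT 4 and 3.93 in beta 5, the other libraries with Sox9 above 5. Of other duct-cell markers in beta 1, Krt7 was at 11.83, the lowest of beta, and Spp1 at 10.72, the highest of beta. Of the 9 duct-cell markers, none rose and 1 fell in alpha DT against alpha, and likewise in alpha Pdx1 DT against alpha. None passed in alpha Pdx1 DT against alpha Pdx1. Of all genes tested, 1.57% rose and 1.7% fell in alpha DT against alpha, and 4.06% and 3.75% in alpha Pdx1 DT. The part of duct cells was not tested.

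**Figure D2:**
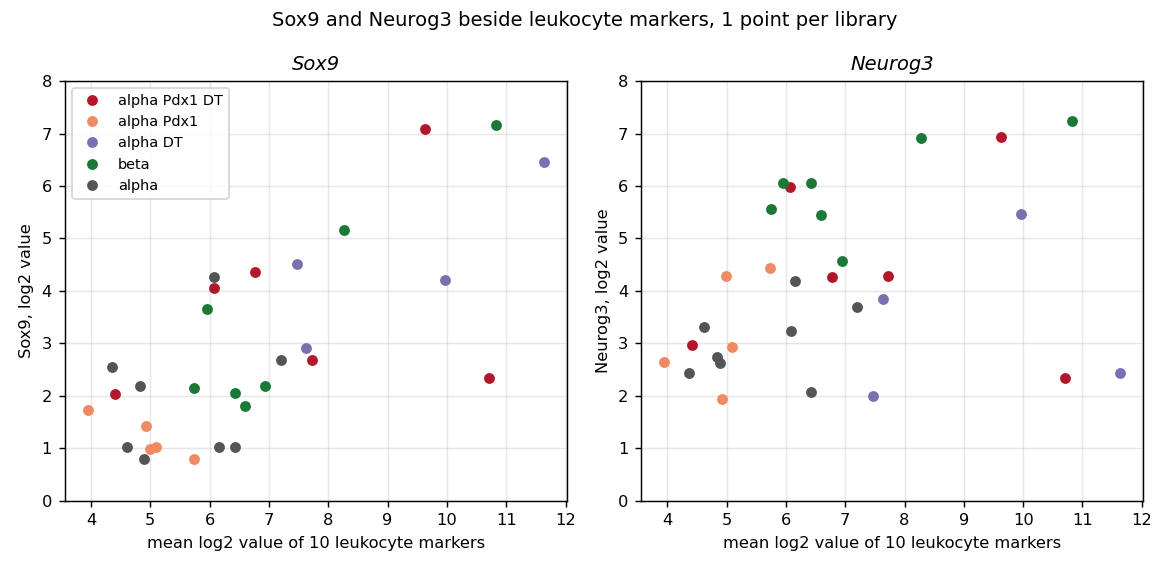
Log2 value of Sox9 (left) and Neurog3 (right) against the mean log2 value of 10 leukocyte markers, 1 point per library, coloured by group. Libraries with Sox9 above 5 all have a marker mean above 8, and alpha Pdx1 DT 6 has a marker mean of 10.71 with Sox9 at 2.35, while beta libraries hold Neurog3 above 4 at marker means as low as 5.74.

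Gata6, a factor of early pancreas formation, was higher in alpha-cells than in beta-cells, and its change with Pdx1 passed no test. Its log2 value was 7.75 at the lowest, 8.10 at the median and 9.34 at the highest in beta, against 9.90, 10.32 and 11.01 in alpha. The difference of beta from alpha was -2.09 ± 0.21 (95% CI -2.52 to -1.67, adjusted p = 1.3e-09), with all 7 beta libraries below all 8 alpha libraries. The same held for 6.42% of genes, and 17.6% were called lower in beta. The highest beta values, 9.34 and 8.66, were in beta 1 and beta 5, whose most abundant message was Gcg, and without the 5 libraries the difference was -2.40 (adjusted p = 7.74e-11).

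In alpha Pdx1 DT, Gata6 was 9.44 at the lowest, 10.05 at the median and 10.56 at the highest. In alpha Pdx1 it was 10.11, 10.15, 10.57, 10.56 and 10.56, and in alpha DT 10.54, 9.86, 9.95 and 10.60. Each of these groups overlapped with alpha. The alpha Pdx1 DT group was higher than beta by 1.73 ± 0.23 (95% CI 1.28 to 2.19, adjusted p = 3.25e-07), with all 6 libraries above all 7 of beta, in a comparison that called 26.3% of all genes, 12.9% of all as higher and 13.4% as lower in alpha Pdx1 DT, with 5.74% not overlapping in that direction. Against alpha it differed by -0.36 ± 0.22 (95% CI -0.81 to 0.09, adjusted p = 0.3). The whole of that interval is smaller in size than the difference between beta and alpha. Without the 5 libraries the Gata6 mean was 9.91 in alpha Pdx1 DT and 10.39 in alpha, beside 10.01 and 10.37 with all. The lowest adjusted p of any alternative for this comparison was 0.0912 in limma. Alpha Pdx1 differed from alpha by 0.02 ± 0.23 (95% CI -0.46 to 0.49, adjusted p = 0.987) and alpha DT by -0.14 ± 0.25 (95% CI -0.64 to 0.37, adjusted p = 0.799).

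Gata4, the partner of Gata6, at GRCm38 chr14:63198914-63271712, was low throughout and reached 5 in 3 libraries only, so it was tested alone with an exact permutation test. Its log2 value was 2.35 at the lowest, 3.28 at the median and 4.996 at the highest in alpha Pdx1 DT. In alpha Pdx1 it was 0.80, 3.93, 3.87, 1.03 and 2.86, and in alpha DT 5.50, 4.28, 2.00 and 3.39. The values 1.03 in alpha Pdx1 4, 2.00 in alpha DT 3 and 2.35 in alpha Pdx1 DT 6 were the lowest of their libraries. In beta Gata4 spanned 2.69 to 7.49 around 4.10, and in alpha 2.18 to 4.02 around 3.42. The value of 7.49 was in beta 1, which was also the library highest in Sox9 and Neurog3. Beta averaged 4.46 ± 1.62 and alpha 3.33 ± 0.58 (SD), a difference of 1.13 with a two-sided exact p of 0.0799. The exact p was 0.024 without beta 4 and 0.0326 without beta 6, and without beta 1 the difference was 0.62. The other 6 exact p-values for Gata4 ran from 0.186, for alpha Pdx1 against alpha with a difference of -0.84, to 0.737, for alpha Pdx1 DT against alpha, and were not adjusted over comparisons.

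**Figure D3:**
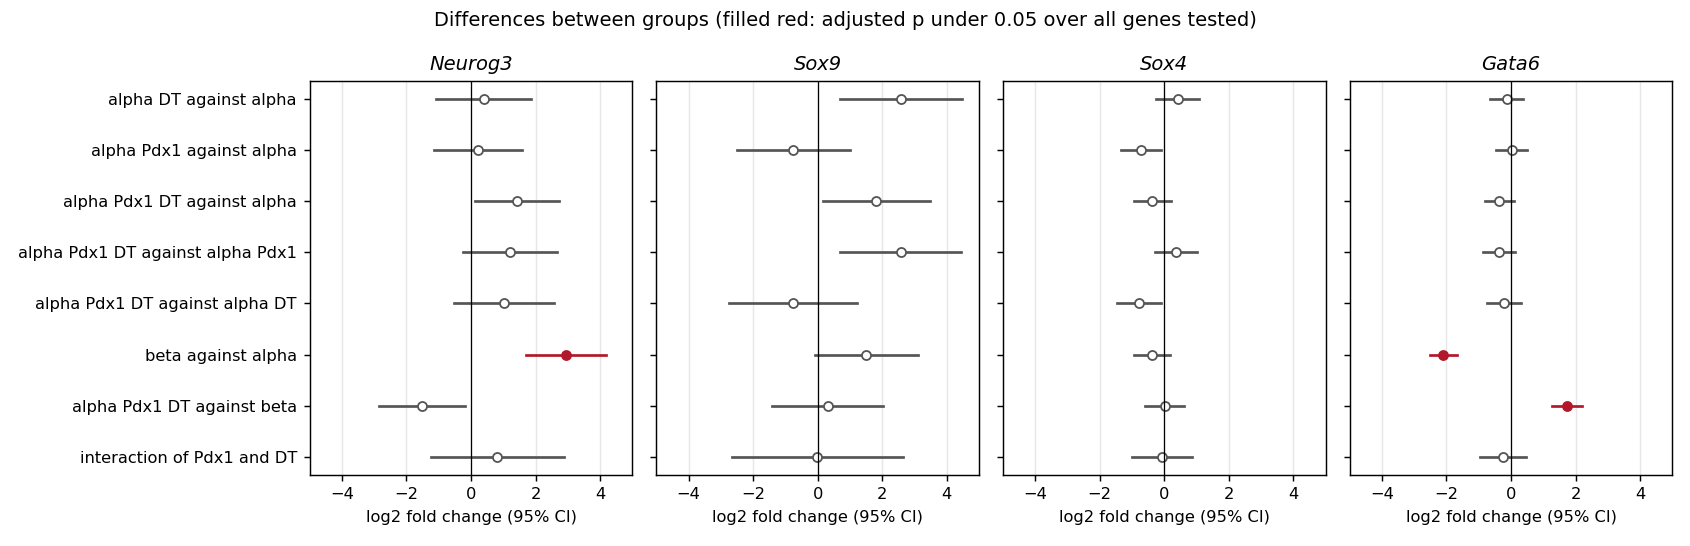
Log2 fold changes of the 4 genes tested in 8 comparisons, the first-named group over the second, with 95% confidence intervals. Filled red points mark an adjusted p under 0.05 and are found for Neurog3 and Gata6 in beta against alpha and for Gata6 in alpha Pdx1 DT against beta.

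The effect of the toxin with Pdx1 minus its effect without Pdx1 was tested as an interaction. It was -0.01 ± 1.30 for Sox9, -0.06 ± 0.46 for Sox4, 0.82 ± 1.02 for Neurog3 and -0.24 ± 0.35 for Gata6, with adjusted p of 0.834 or more. The interaction called 0% of genes in limma (0 of 16633, with 1527 at an unadjusted p under 0.05, 0 of them members), so the wide intervals, from -2.66 to 2.64 for Sox9, limit what it can show. Over the members tested, 2 of 4 passed in beta against alpha, where 34.5% of all genes were called, and 1 of 4 in alpha Pdx1 DT against beta, where 26.3% were. In the others 0 of 4 passed, where 0% to 9.22% of all genes were called.

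The genes around the members were taken from lists of known pathway genes. Rn18s-rs5, a ribosomal RNA row, was 19.87 to 22.57 in alpha Pdx1 DT and 16.90 to 18.27 in alpha Pdx1, without overlap, and with it as a covariate limma called 0 of 16633 genes in alpha Pdx1 DT against alpha Pdx1 (758 at an unadjusted p under 0.05) and 0 against alpha (1991). With a fit of these groups alone, alpha Pdx1 DT against alpha called 0 of 15528 genes (3693). No list gene call below in alpha Pdx1 DT against alpha holds under either setting, and none against alpha Pdx1 holds with the covariate. The part of ribosomal RNA in them was not tested. Of 21 progenitor and duct genes tested, none rose and 3 fell in alpha DT against alpha, 1 rose and none fell in alpha Pdx1, and 1 rose and 3 fell in alpha Pdx1 DT, with medians of -0.27, -0.21 and -0.27 beside -0.06, 0.03 and -0.03 over all genes. Of all genes tested, 1.57% rose and 1.7% fell in alpha DT, 2.36% and 1.98% in alpha Pdx1, and 4.06% and 3.75% in alpha Pdx1 DT, against alpha. Hes1, the Notch target that represses Neurog3 in progenitors, fell. It was 4.51 at the lowest, 5.87 at the median and 8.37 at the highest in alpha Pdx1 DT, and 5.97, 6.22 and 7.56 in alpha DT, against 6.06, 9.03 and 9.62 in alpha. It thus fell by 2.28 ± 0.50 in alpha Pdx1 DT (adjusted p = 0.0111) and by 2.04 ± 0.57 in alpha DT (adjusted p = 0.0413). With each library left out in turn the first call held in 14 of 14 fits and the second in 3 of 12. Hes1 was also lower in beta than in alpha (-2.02 ± 0.48, adjusted p = 0.00129). In alpha Pdx1 its difference from alpha was -1.11 ± 0.53 (adjusted p = 0.267), and -1.63 ± 0.46 (adjusted p = 0.0264) without the 5 libraries. Cdh1, the epithelial cadherin, rose by 0.91 ± 0.23 in alpha Pdx1 (adjusted p = 0.0188) and by 0.86 ± 0.22 in alpha Pdx1 DT (adjusted p = 0.0187) against alpha, calls that held in 10 of 13 and 12 of 14 fits with a library left out. In beta against alpha 3 of the 21 were higher and 9 lower, among them Yap1, a Hippo pathway coactivator. Of all genes tested, 16.9% were higher and 17.6% lower there.

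Of 25 endocrine progenitor genes tested, 2 rose in alpha DT against alpha and 0 in alpha Pdx1 against alpha, with none lower in either, and 1 rose and 1 fell in alpha Pdx1 DT against alpha. Of all genes tested, 1.57%, 2.36% and 4.06% rose in these comparisons, and 1.7%, 1.98% and 3.75% fell. The list genes that rose in alpha DT were Nkx2-2, an islet homeodomain factor, by 1.03 ± 0.25 (adjusted p = 0.0196), and the filament gene Vim, by 2.73 ± 0.69 (adjusted p = 0.0261), which held in 11 and 10 of 12 fits with a library left out. Neither held with the leukocyte mean as a covariate, a setting that can also take up an effect of the toxin, as said above. Vim is also made by leukocytes and mesenchyme, whose part was not tested further. Nkx2-2 also rose in alpha Pdx1 DT against alpha Pdx1, by 1.17 ± 0.25 (adjusted p = 0.00614). It lay between 12.03 and 12.78 in alpha Pdx1 DT and between 10.91 and 11.53 in alpha Pdx1, without overlap. The same held, in that direction, for 2.03% of all genes tested.

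Of 16 dedifferentiation genes tested, 0 changed in alpha DT against alpha, 1 rose and 1 fell in alpha Pdx1, and 3 rose and 1 fell in alpha Pdx1 DT, with medians of 0.07, 0.32 and 0.45, where the shares of all genes that rose and fell are 1.57% and 1.7%, 2.36% and 1.98%, and 4.06% and 3.75%. In alpha Pdx1 against alpha without the 5 libraries, 3 rose and 3 fell, and of the progenitor and duct genes 1 rose and 3 fell, where 6.67% of all genes were called. Among those that rose were genes also higher in beta than in alpha. Trpm5, a cation channel, rose by 2.34 ± 0.65 in alpha Pdx1 DT (adjusted p = 0.0271) and by 2.43 ± 0.68 in alpha Pdx1 (adjusted p = 0.0363) against alpha, calls that held in 6 of 14 and 5 of 13 fits with a library left out, and was 8.43 ± 0.62 higher in beta than in alpha (adjusted p = 1e-11). Nnat, a membrane protein of the endoplasmic reticulum, rose by 2.09 ± 0.54 in alpha Pdx1 DT against alpha (adjusted p = 0.0196), by 2.57 ± 0.61 against alpha Pdx1 (adjusted p = 0.0101), and was 5.73 ± 0.52 higher in beta than in alpha (adjusted p = 2.95e-10). Pgf, a growth factor, fell by 0.98 ± 0.30 in alpha Pdx1 DT (adjusted p = 0.0414) and by 1.79 ± 0.32 in alpha Pdx1 (adjusted p = 0.00217). The call in alpha Pdx1 held in all 25 alternatives run, and that in alpha Pdx1 DT in 13 of 26.

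Of the 13 genes of retinaldehyde and retinoic acid metabolism and signalling tested, the pathway of Aldh1a3, 1 rose and 1 fell in alpha DT against alpha, 0 changed in alpha Pdx1 and 1 fell in alpha Pdx1 DT. Of all genes tested, 1.57%, 2.36% and 4.06% rose in these comparisons, and 1.7%, 1.98% and 3.75% fell. The list gene that fell in alpha Pdx1 DT was the receptor gene Rarb, at 2.35 to 6.07 in alpha Pdx1 DT and 4.80 to 6.49 in alpha, with a difference of -2.28 ± 0.52 (adjusted p = 0.0116). It was lower in beta than in alpha too (-2.74 ± 0.50, adjusted p = 4.64e-05). In alpha DT the aldehyde dehydrogenase gene Aldh1b1 fell by 1.51 ± 0.44 against alpha (adjusted p = 0.0488), a call that held in 4 of 12 fits with a library left out.

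Of 16 other Sox genes, 4 had a row. Sox5 and Sox6, of the SoxD group, differed in beta from alpha by -2.32 ± 0.26 (adjusted p = 1.57e-08) and -2.05 ± 0.29 (adjusted p = 9.4e-07), and in alpha Pdx1 DT from beta by 1.98 ± 0.28 (adjusted p = 1.75e-06) and 1.55 ± 0.31 (adjusted p = 0.000275). Sox12, the SoxC relative of Sox4 and Sox11, was 9.38 to 10.07 in alpha Pdx1 DT and 8.26 to 9.17 in alpha Pdx1, and rose by 1.02 ± 0.25 (adjusted p = 0.0106), while in alpha Pdx1 against alpha it fell by 0.78 ± 0.23 (adjusted p = 0.0471, and 0.0603 without the 5 libraries), which held in 5 of 13 fits with a library left out. Sox13, of the SoxD group, passed in no comparison. Both comparisons share the alpha Pdx1 libraries. In alpha Pdx1 DT against alpha DT, where 1.78% of all genes rose and 0.319% fell, 2 progenitor and duct genes and 1 dedifferentiation gene rose. Of 5 Gata-related genes tested, 1, Gatad1, a chromatin cofactor, passed in beta against alpha (-0.41 ± 0.13, adjusted p = 0.014), and without the 5 libraries it did not (-0.38 ± 0.16, adjusted p = 0.0681). With all libraries, beta against alpha called 34.5% of all genes. Without the 5 libraries, alpha Pdx1 DT against alpha called 20.5% of genes, and the lists moved with it: 1 progenitor and duct gene rose and 6 fell, 4 and 5 of the endocrine progenitor genes, and 5 and 3 of the dedifferentiation genes.

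**Figure D4:**
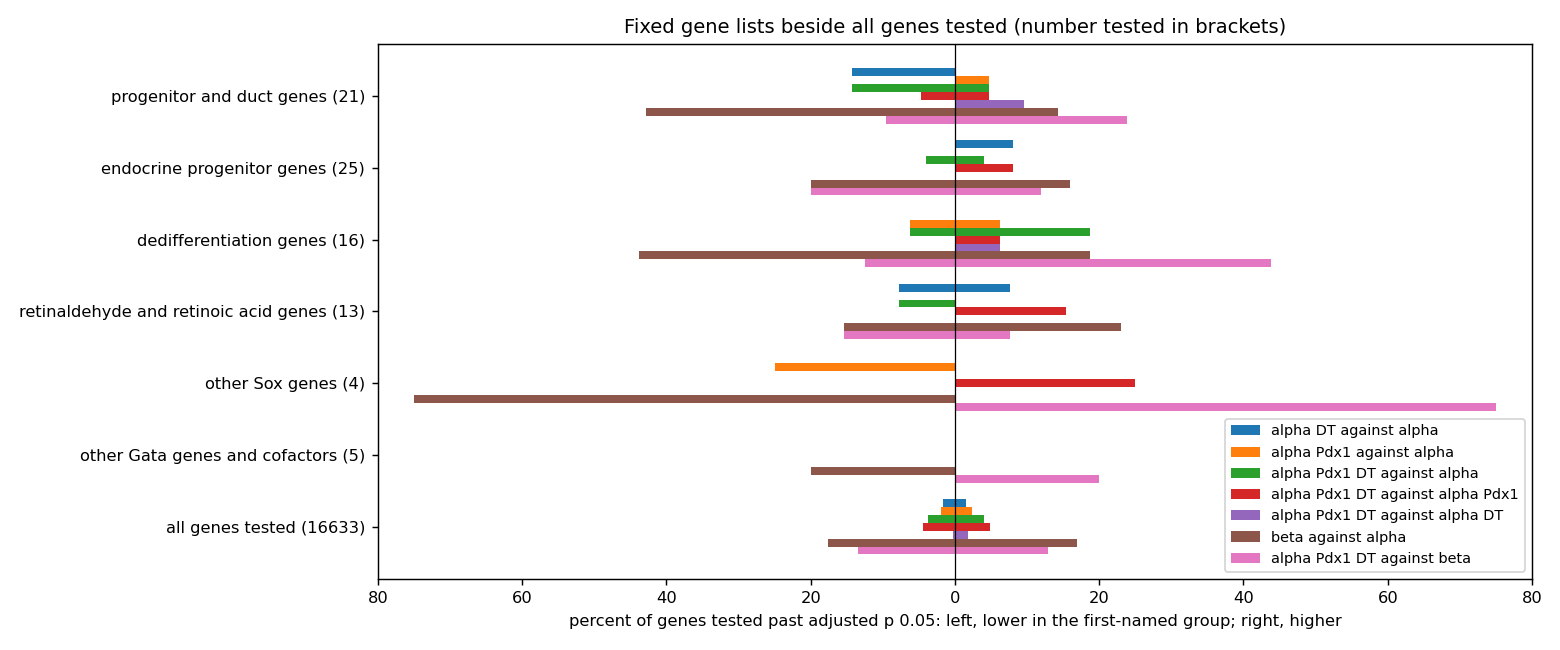
Percent of tested genes of each list past an adjusted p of 0.05 in 7 comparisons, bars to the right for genes higher in the first-named group and to the left for lower ones, with all genes tested as the bottom row. Outside the comparisons with beta, no list drawn reached more than 4 genes called in any comparison, and the longest bars, for the other Sox genes, stand for 1 or 3 genes of 4.

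If libraries with more insulin message held more of a progenitor gene, the members would rise with Ins2 over the 11 alpha Pdx1 DT and alpha Pdx1 libraries. With group means removed, Pearson's r was 0.41 for Sox9, 0.12 for Sox4, 0.27 for Neurog3, -0.42 for Gata6 and 0.32 for Gata4, with permutation p of 0.303, 0.771, 0.578, 0.335 and 0.335. Spearman's rho was 0.24, 0.12, 0.28, -0.27 and 0.06, and over the 5 relations the adjusted p was 0.559 or more for r and 0.881 for rho. Without alpha Pdx1 DT 1 and alpha Pdx1 DT 5, farthest from the median of Ins2, r lay between -0.32 and 0.10. Without the libraries alpha Pdx1 5 and alpha Pdx1 DT 5, r was 0.0024 for Sox9, 0.76 for Sox4 (permutation p = 0.046, adjusted p = 0.23), -0.025 for Neurog3, 0.42 for Gata6 and 0.18 for Gata4, with adjusted p of 0.836 or more other than for Sox4. The values over 11 libraries for Sox9, Sox4, Neurog3 and Gata6 therefore depend on whether these libraries are kept. That for Gata4 turned to -0.32 without the 2 libraries farthest from the median of Ins2.

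Over the 30 libraries, the genes most like a member by Pearson's r of log2 values are given as a description, since libraries share groups and normalization. For Gata6 they were Alcam (0.95), Cdh9 (0.95) and Cdo1 (0.95), and for Neurog3 G6pdx (0.83), Cpne4 (0.82) and Nnat (0.81). For Sox9 they were Tns1 (0.79), Cfb (0.79) and Anxa2 (0.77), for Sox4 Ctxn1 (0.76), Dynlrb2 (0.73) and Tfpt (0.70), and for Gata4 Oasl1 (0.76), Cs (0.72) and Ceacam1 (0.66). Among the members, Neurog3 and Gata6 ran opposite (-0.59), and with group means removed their r was 0.18. Sox9 and Gata4 had r = 0.52, and 0.45 with group means removed. Sox9 and Sox4, both of the Sox family, had r = 0.16.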

How the data were processed

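The authors deposited quantile-normalized log2 values of 17775 genes in 30 libraries of sorted islet cells. The submitters' processing notes name GSNAP and GRCm38; for counting rule and annotation, nothing is given in the sources used here. Most columns have numeric names and hold the same log2 values. Read totals are not used here, so depth and counting error are unknown. The members and gene lists were chosen with earlier results of these data known. Groups came from the labels, and replicate numbers only name libraries.

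One mean per group was fitted over all 30 libraries (limma 3.58.1, run under R 4.3.3), and variances were moderated on a trend over mean level and robustly. The fit kept the 16633 genes that reached 5 in 4 or more libraries. P-values were adjusted by Benjamini-Hochberg over these genes in each comparison, at a threshold of 0.05. Errors after ± are SE for differences and SD for group means. Gata4, below the filter, had two-sided exact permutation tests. Relations to Ins2 used 100000 permutations within groups. Genes named from a list are up to 2 risers and 2 fallers with the largest change past the threshold, and those most like a member are the 3 with the highest r. Krt19, Krt7 and Spp1 were named after their values were seen. One gene that the rule selects is not reported here. No set test was run. Sequences and coordinates are from RefSeq (GRCm38.p6). Python 3.11.15 with pandas 2.3.3, scipy 1.17.1 and matplotlib 3.10.9 made tables and figures, and the tests were checked on simulated data. Alternatives varied the filter, variance model, library weights, groups fitted, scale, covariates and libraries.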

Additional observations from a re-analysis of the deposited data

How the results depend on the processing

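Over the alternatives, 215 results were kept, which are counts of members past the threshold together with relations to Ins2. A further 7 counts of members moved, either from 0 or by over 1.5 times. Of values of single members, 878 kept their side of the threshold, 10 crossed it to a call, and no called member reversed. With library quality weights, the count of members was 1 in alpha Pdx1 DT against alpha and 2 against alpha Pdx1. Without the 5 libraries and with no filter, an alternative added after the data were seen, it was 1 in each of these. Leaving out a replicate gave 0 to 1 in alpha Pdx1 DT against alpha Pdx1 and 1 to 2 in alpha Pdx1 DT against beta. Gata6 and Neurog3 in beta against alpha and Gata6 in alpha Pdx1 DT against beta passed under every alternative run and every replicate left out, with ranges of -2.40 to -1.98, 1.27 to 3.17 and 1.63 to 2.05. The value of 1.27 comes from an offset of 32 on the linear scale, which shrinks low values by construction. With the ribosomal row Rn18s-rs5 as a covariate, Sox9 differed by 4.27 ± 1.54 (adjusted p = 0.995) in alpha Pdx1 DT against alpha Pdx1, and the calls there of Epcam and Rara turned to 0.070 and -0.32 (adjusted p = 0.998 and 0.995); the cause was not tested. The same alternatives were run, after the results were seen, for up to 2 risers and 2 fallers past the threshold per list and comparison. Cell type marker lists were left out. Pooled over comparisons, 1417 values kept the call, 266 lost it and 2 reversed. Most of the lost calls, and the 2 reversed, were in comparisons among alpha-cell groups, so the pooled count overstates how steady those are. Sox9 was not tested where the filter of 6, a left-out library, the 5 libraries or a fit of only the groups compared put it below the filter, and Neurog3 likewise in some fits of only the groups compared. No paired analysis was possible because the labels give no replicate numbers. The table holds no depth, and a low value cannot be told from an absent message, since the lowest value differs between libraries.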
